A study of Sus scrofa with 6 samples.

Results

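Solute carriers were examined in porcine growth plate and articular cartilage and in the cultures grown from them. The genes are those whose only symbol in the array's annotation begins with SLC and a digit, and 120 of the 6765 genes with a single symbol met that rule. They were represented by 176 probe sets. Where a gene had several probe sets, as 39 of the genes did, the probe set whose log2 signal was highest on average across all 6 arrays stood for it. By substrate, 15 genes belonged to families that carry sugars, 21 to amino acid and peptide carriers, 5 to carriers of monocarboxylates, lipids or bile acids, and 13 to carriers of nucleosides and nucleotide sugars. Another 12 fell to metal carriers, 22 to mitochondrial carriers, 12 to ion exchangers and cotransporters, 2 to phosphate carriers and 15 to carriers of organic ions, vitamins and other substrates. Genes were placed by family unless listed singly, so a member may carry another substrate or sit in another membrane than its group's name. The last 3, SLC2A4RG, SLC9A3R1 and SLC9A3R2, carry the prefix because they are named after a carrier, and are not carriers themselves.

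Solute carriers are membrane proteins that move sugars, amino acids, ions, vitamins and metabolites across the plasma membrane or the membranes of organelles. Some let a substrate run down its gradient, and others couple its movement to that of sodium, protons or a second metabolite. Cartilage has no blood vessels and little oxygen, so chondrocytes depend on facilitated glucose uptake and on export of the lactate that glycolysis makes. They also need sulfate, amino acids and nucleotide sugars in the Golgi to build the proteoglycans and collagens of the matrix.

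Each of the 6 porcine (Sus scrofa) samples was hybridised to 1 Affymetrix array. The growth plate samples were native growth plate cartilage and primary chondrocytes from that cartilage at day 10 and at day 20 of differentiation in culture. The articular samples were native articular cartilage and primary articular chondrocytes at the same days. The 4 cultures shared their handling: collagenase release of the cells, DMEM/Ham's F12 medium with FBS and antibiotics, 37 °C, 5% oxygen, 5% carbon dioxide and no added supplement. Breed, age and number of the animals, and whether arrays shared animals or pooled them, are not given in the sources used here. Every condition had 1 array and no replicate, so a difference between 2 arrays has no error of its own.

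Signals are linear intensities in array units, listed in the order native, day 10, day 20. A floor of 36.1, the 40th percentile of all signals, marks the level below which signals were treated as equal; folds against a signal under the floor are lower bounds. A positive log2 difference means higher in growth plate than in articular samples, in culture than in native tissue, or at day 20 than at day 10. In bulk RNA, fewer cells of a type and less RNA per cell cannot be told apart.

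Array medians lay between 59.5 and 71.5, and 58.6% to 61.0% of probe sets were above the floor on an array. The native articular array was the least like the others, with a mean correlation of 0.89 to the other arrays over 5598 genes against 0.93 to 0.939 for the rest. Of 8 chondrocyte markers, 6 were on the table, all passed the filter, and their summed signal ran from 29763 to 37025 in growth plate and from 31515 to 39900 in articular samples. ALAS2 and AHSP of erythroid cells, CDH5, VWF, KDR and TEK of endothelium, and CD163 and PTPRC of leukocytes lay under the floor on all 6 arrays. The leukocyte marker CD14 was above it only in the growth plate day 10 culture, at 43.8. AIF1 was above it only in native growth plate, at 36.9. The skeletal muscle marker MYH7 gave 24.9, 11.5 and 55.0 in growth plate samples, against 31.1, 36.7 and 48.1 in articular ones. CKM was above the floor only in the articular day 20 culture, at 43.1, and TNNT3 on no array. The endothelial marker PECAM1 gave 67.2, 52.9 and 52.6 in growth plate samples, against 277, 118 and 65.6 in articular ones, highest in native articular cartilage. Other listed markers differed more between samples. The bone and hypertrophic cartilage gene IBSP, listed for osteoblasts, gave 10642, 14034 and 15675 in growth plate samples, against 53.2, 309 and 5958 in articular ones. The other osteoblast markers on the table did not follow it. BGLAP gave 60.3, 27.1 and 23.2 against 50.3, 64.6 and 15.2, and DMP1 gave 18.2, 42.8 and 6.66 against 51.4, 27.1 and 39.5. SP7 was above the floor only in the articular day 20 culture, at 57.3. The protease gene CTSK, listed for osteoclasts, was at 14768 and 17802 in the native tissues and between 5803 and 8225 in the cultures. From the same list, ACP5 was above the floor only in the native tissues, at 63.5 and 46.6, and CALCR was under it on all arrays. The lipase gene LPL, listed for adipocytes, gave 1361, 403 and 879 against 420, 392 and 713. The adipocyte markers FABP4 and ADIPOQ did not follow it, with 5.65, 22.4 and 17.2 against 21.4, 34.1 and 91.5 for FABP4. ADIPOQ gave 24.3, 27.0 and 41.9 against 40.5, 23.6 and 28.1. Within the chondrocyte list SOX9 gave 175, 125 and 118 against 982, 81.0 and 76.8, highest in native articular cartilage. Their part in the carrier differences was not tested.

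Above the floor on at least 2 arrays were 92 of the 120 genes, and only these were compared. Of the 28 others, 19 were under the floor on every array and 9 were above it on 1 array, with no signal over 57.5. Among these 28 were both genes of the phosphate group, SLC17A1 and SLC34A2, the intestinal glucose cotransporter SLC5A1, the liver glucose carrier SLC2A2, the peptide carriers SLC15A1 and SLC15A2, and the bile acid carrier SLC10A1. By group, 21 of 22 mitochondrial, 11 of 12 metal, 11 of 13 nucleoside and nucleotide sugar, and 13 of 15 sugar genes passed, against 13 of 21 amino acid and 9 of 15 organic ion and vitamin genes. The sulfate carrier SLC26A2, the glucuronic acid and galactosamine nucleotide carrier SLC35D1, the phosphate carriers SLC20A1 and SLC20A2, the zinc carrier SLC39A8, the amino acid carriers SLC38A2 and SLC7A5, and the lactate carrier SLC16A1 were not analysed here, having no probe set with that symbol alone.

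The first comparison asked which carriers differ between growth plate and articular cartilage. In the native tissues 4 of the 92 were at least 4-fold higher in growth plate: SLC2A5, SLC16A3, SLC2A3 and SLC1A6, which carry fructose, lactate, glucose and glutamate. The share, 4.35%, was set against 3.45% of all 5598 genes. SLC6A8, SLC5A6 and SLC9A3R1 were at least 4-fold lower, 3.26% of the genes against 1.2% of all genes. At 2-fold, 15 were higher and 7 lower, 16.3% and 7.61%, beside 12.9% and 7.88% of all genes; the median log2 difference was 0.11 over the 92 and -0.01 over all genes. No solute carrier was 4-fold apart between the cultures of either day, where 0.625% of all genes were that much higher and 0.5% lower at day 10, and 0.393% and 0.715% at day 20.

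Over the 3 stages, none of the 92 had the growth plate sample 2-fold or more above the articular one in every pair of arrays (0.554% of all genes were) or 2-fold lower in every pair (0.322%). The additive limma fit of tissue and stage called 0 of the 92 genes, where a call needed 2-fold and a Benjamini-Hochberg adjusted p below 0.05, beside 0.0536% of all genes. At an unadjusted p under 0.05 the same limma fit had 10, or 10.9%, beside 10.7% of all genes. With the native arrays left out, limma on the 4 cultures called 2 genes higher in growth plate, SLC1A5 and SLC35A3 (1.22% of the 5473 genes in that fit), and 0 lower (1.55%). Its p-values rest on 1 residual degree of freedom and on the spread of all genes, and measure how far tissue and day fail to add, not the spread between animals; the same holds of the 6-array fit, with 2 residual degrees of freedom.

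**Figure D1:**
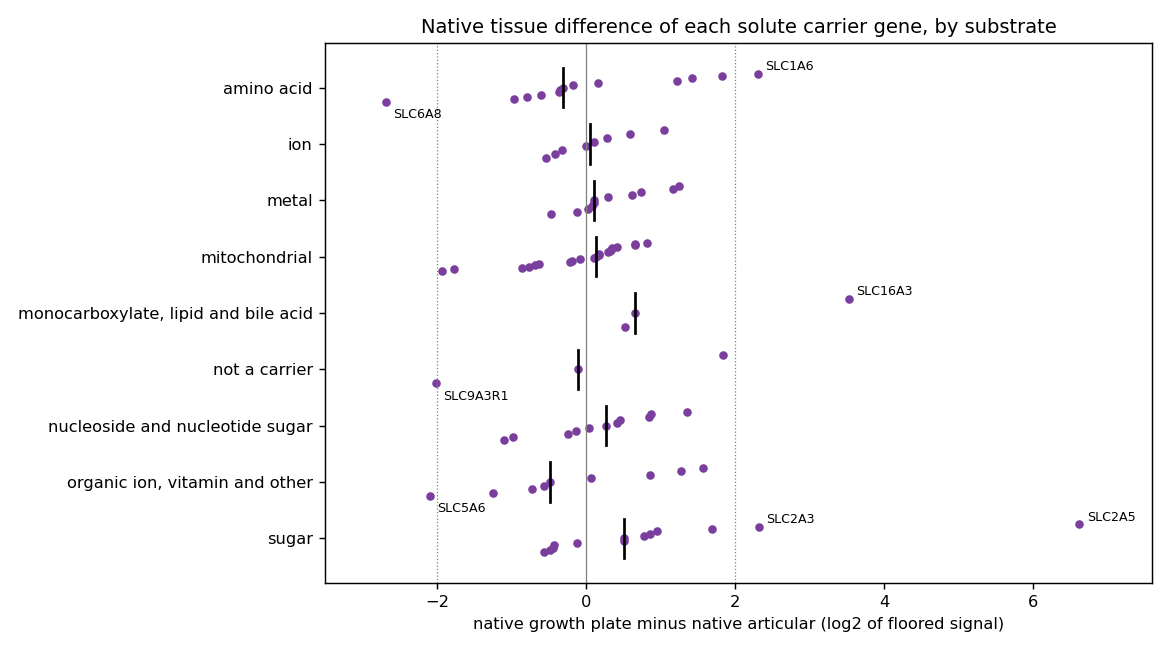
Log2 difference between native growth plate and native articular cartilage for the 92 solute carrier genes above the floor, 1 point per gene, arranged by substrate group, with dotted lines at 4-fold. SLC2A5 lies at 6.62 and SLC16A3 at 3.53, and SLC6A8 has the lowest value, -2.69.

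The second comparison set the cultures against the native tissue they came from. SLC25A37, the mitochondrial iron importer mitoferrin-1, and SLC29A1, the equilibrative nucleoside carrier ENT1, were at least 2-fold lower in all 4 pairs, 2 of 92 genes (2.17%) beside 0.697% of all genes. None was 2-fold higher in all 4 pairs, beside 0.697% of all genes. The additive limma fit called 0 genes in this contrast (0% of all genes), with 19, or 20.7%, at an unadjusted p under 0.05 beside 19.3% of all genes. Articular chondrocytes differed from their native tissue at more of these genes than growth plate chondrocytes did: at day 20, 13 were 2-fold higher and 18 lower in articular samples (14.9% and 8.82% of all genes), and 3 were higher and 9 lower in growth plate samples (4.59% and 5.72%). At both days 8 were 2-fold higher and 13 lower in articular samples (9.77% and 5.16% of all genes), and SLC35B2 alone was higher and SLC11A2, SLC25A37, SLC29A1 and SLC39A14 lower in growth plate samples (1.43% and 1.96%). Whether the tissues' counts differ was not tested, and all articular differences share the native articular array.

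The limma calls depended on which array was left out. With either native array left out, the native side of the contrast is a single array. Limma then takes its spread from the cultures, on 1 residual degree of freedom, and assumes that the lone native sample varies as they do, so the calls do not measure the spread between native tissues. With the native growth plate array left out, limma called 11 genes higher in culture and 11 lower, beside 13.6% and 7.42% of all genes. Higher were SLC2A5, SLC16A3, SLC46A1, SLC38A9, SLC35D2, SLC9A3R2, SLC2A12, SLC37A4, SLC2A4RG, SLC38A1 and SLC33A1. Lower were SLC25A37, SLC29A1, SLC6A8, SLC1A5, SLC7A1, SLC3A2, SLC1A4, SLC5A6, SLC25A33, SLC11A2 and SLC9A3R1. Members of the amino acid families were on both sides, SLC38A9 and SLC38A1 higher, and SLC1A5, SLC7A1, SLC3A2, SLC1A4 and SLC6A8 lower. With the native articular array left out instead, limma called 1 higher, SLC35B2 (1.75% of all genes), and 1 lower, SLC2A3 (2.15%). With growth plate day 20 left out, it called SLC35D2 higher (0.974%) and SLC25A37 and SLC29A1 lower (0.992%), and with any of the other 3 arrays left out it called none.

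The third comparison set day 20 against day 10 of culture. SLC2A3, SLC39A4 and SLC9A3R2 were at least 2-fold higher at day 20 in both tissues (3.26%, beside 2.48% of all genes). Lower at day 20 by 2-fold or more in both were 4 genes, the glutamate carriers SLC1A1, SLC1A3 and SLC1A6 and the mitochondrial carnitine carrier SLC25A20 (4.35%, beside 2.86%). The additive limma fit called 0 of them (0% of all genes), with 12, or 13.0%, at an unadjusted p under 0.05 beside 14.6% of all genes. Limma on the 4 cultured arrays alone called 6 higher at day 20 (4.71% of all genes) and 5 lower (4.59%). The 6 were SLC2A3, SLC39A4, SLC9A3R2, SLC2A5, SLC2A12 and SLC37A4, of which SLC2A3, SLC2A5, SLC2A12 and SLC37A4 belong to the sugar families, and the 5 were SLC1A1, SLC1A6, SLC1A3, SLC25A20 and SLC35C1. These calls concern a day difference common to both tissues, and the error covers departures from it only, since no culture was repeated.

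**Figure D2:**
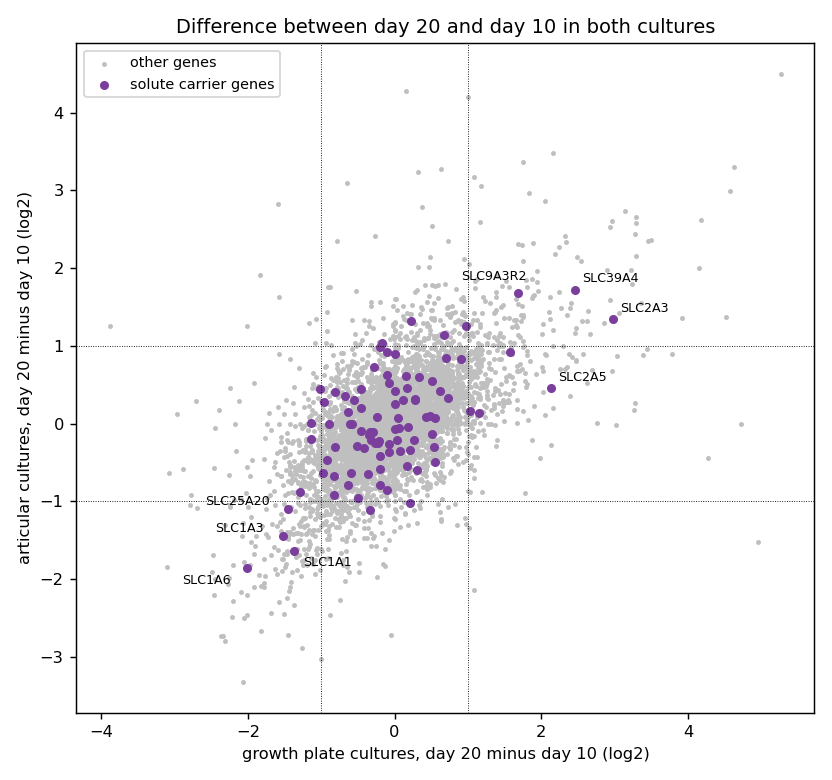
Log2 difference between day 20 and day 10 in growth plate cultures (horizontal) and in articular cultures (vertical), with the 92 solute carrier genes in purple, all other genes compared in grey and dotted lines at 2-fold. The 3 glutamate carriers lie at the lower left with SLC25A20, and SLC2A3, SLC39A4 and SLC9A3R2 at the upper right.

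Sugar carriers held the largest native tissue difference among the 92 genes. SLC2A5 (GLUT5), the facilitative fructose carrier, gave signals of 6221, 2410 and 10610 in growth plate samples and 63.5, 5642 and 7733 in articular samples. Native articular cartilage was the only low sample, and the culture values of the tissues overlapped. The native growth plate signal was 98.0-fold that of native articular cartilage, whereas at day 10 the articular culture was 2.34-fold above the growth plate culture. SLC2A5 was the only one of the 92 genes at least 2-fold apart in opposite directions in the native tissues and at day 10, as were 0.768% of all genes. Against native articular cartilage the articular cultures were 88.9-fold and 122-fold higher, while the growth plate cultures were 2.58-fold lower and 1.71-fold higher than their native tissue.

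In the additive fit the SLC2A5 tissue difference was 1.95 ± 1.41 (log2 ± SE, limma adjusted p = 0.62) and its culture difference 3.20 ± 1.5 (limma adjusted p = 0.298). Without the native growth plate array the culture difference was 6.70, which then rests on native articular cartilage alone. Between the culture days SLC2A5 was 4.40-fold higher at day 20 in growth plate and 1.37-fold higher in articular cultures. In the 6-array fit that day difference was 1.30 ± 1.73 (limma adjusted p = 0.783). Limma on the 4 cultures gave 1.30 ± 0.27, with an adjusted p of 0.00526.

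SLC2A3 (GLUT3), a high-affinity glucose carrier, gave 6978, 831 and 6548 in growth plate samples, against 1399, 1206 and 3057 in articular ones. Day 10 was the low point of the growth plate series, 8.40-fold under native tissue, and the native and day 20 growth plate signals exceeded every articular signal. Native growth plate was 4.99-fold above native articular cartilage, but the growth plate culture was 1.45-fold lower than the articular one at day 10 and 2.14-fold higher at day 20. From day 10 to day 20 the signal was 7.88-fold and 2.54-fold higher in growth plate and articular cultures. The day difference was 2.16 ± 0.63 in the 6-array fit (limma adjusted p = 0.251) and 2.16 ± 0.29 in the fit to cultures (limma adjusted p = 0.000291).

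SLC2A1 (GLUT1), which supplies basal glucose in most cells, gave 3022, 2326 and 3363 in growth plate samples, against 2119, 2059 and 1668 in articular ones. The growth plate signal was the higher at every stage, by 1.43-, 1.13- and 2.02-fold, and the lowest growth plate value still lay above the highest articular one. SLC2A12 (GLUT12), another facilitative glucose carrier, was low, at 65.7, 40.8 and 122 in growth plate samples, against 31.4, 91.3 and 174 in articular ones. It was 2.98-fold and 1.90-fold higher at day 20 than at day 10, a difference of 1.25 ± 0.34 in the fit to cultures (limma adjusted p = 0.0214). The muscle and fat carrier SLC2A4 (GLUT4) stayed between 14.7 and 74.0 and the intracellular carrier SLC2A8 (GLUT8) between 130 and 292, with the highest SLC2A8 signals at day 10 in both tissues.

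SLC37A4, the endoplasmic reticulum glucose 6-phosphate carrier, gave 131, 104 and 205 in growth plate samples, against 40.7, 69.9 and 167 in articular ones. Growth plate was higher at each stage, by 3.22-, 1.49- and 1.23-fold, and day 20 was higher than day 10 by 1.96-fold and 2.39-fold. Its second probe set was also higher in growth plate at each stage and at day 20 than at day 10, with 116, 119 and 270 against 37.4, 37.5 and 94.7. The day difference was 1.11 ± 0.43 in the 6-array fit (limma adjusted p = 0.328). The fit to cultures gave 1.11 ± 0.32 (limma adjusted p = 0.0287). SLC50A1 (SWEET1), a sugar uniporter, went the other way, with 463, 296 and 334 in growth plate samples, against 503, 650 and 444 in articular ones.

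Across the 13 sugar genes that passed, 3 were 2-fold higher and 0 lower in native growth plate, beside 12.9% and 7.88% of all genes, with a median log2 difference of 0.51 beside -0.01 over all genes. The median was -0.19 at day 10 and 0.15 at day 20. Between the days, 4 of 13 were 2-fold higher at day 20 in growth plate cultures and 2 of 13 in articular cultures, beside 6.65% and 5.75% of all genes, with 0 lower in either, beside 7.04% and 5.56%. The 8 listed genes of sugar use that were measured were chosen for their place in glycolysis and fructose handling. Of these, 2 were 2-fold higher at day 20 in the 6-array fit, beside 4.88% of all genes. Limma called 0 of them in that contrast, beside 0% of all genes. KHK, the ketohexokinase that phosphorylates fructose, gave 73.4, 157 and 140 in growth plate samples, against 115, 251 and 223 in articular ones, lowest in both native tissues. Aldolase C (ALDOC) gave 1306, 771 and 2555 against 229, 847 and 2237, and so was low in native articular cartilage.

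SLC16A3 (MCT4), the proton-coupled carrier that exports lactate, gave 964, 910 and 1448 in growth plate samples, against 83.5, 460 and 1016 in articular ones. Growth plate was higher at each stage, but the gap was smaller in culture, being 11.5-fold when native, then 1.98-fold (day 10) and 1.43-fold (day 20). The articular cultures were 5.51-fold and 12.2-fold above native articular cartilage, whereas the growth plate cultures lay within 1.5-fold of theirs. Its tissue difference was 1.67 ± 0.59 (limma adjusted p = 0.449). LDHA, the lactate dehydrogenase subunit that makes lactate from pyruvate, gave 15083, 15684 and 19190 in growth plate samples, against 12730, 15186 and 16600 in articular ones. The fatty acid carrier SLC27A1 (FATP1) gave 86.4, 74.0 and 70.1 against 60.4, 42.2 and 60.5, above in growth plate at all stages by at most 1.75-fold.

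**Figure D3:**
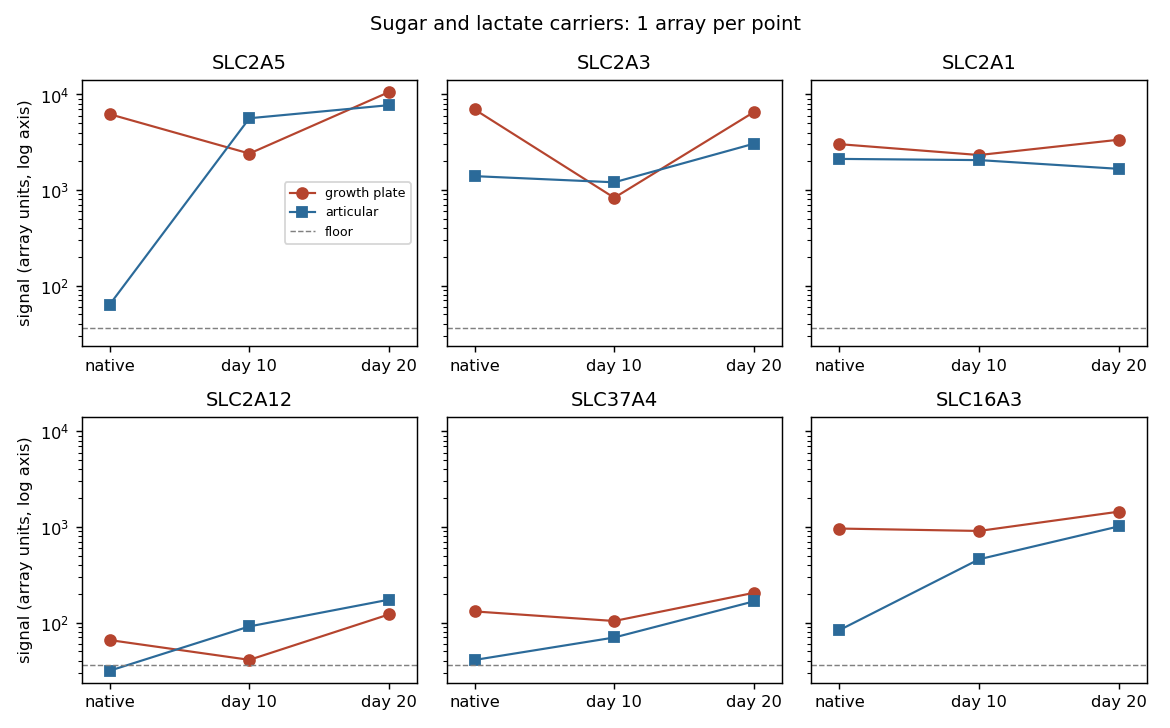
Signals of SLC2A5, SLC2A3, SLC2A1, SLC2A12, SLC37A4 and SLC16A3 on a log axis by stage, with growth plate in red, articular in blue, 1 array per point and the floor dashed. Native articular cartilage has the lowest signal of its series for SLC2A5, SLC2A12, SLC37A4 and SLC16A3, and growth plate SLC2A3 is lowest at day 10.

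Amino acid carriers included 3 sodium-coupled glutamate carriers that were higher at day 10 than at day 20 in both cultures. SLC1A1 (EAAC1), which takes up glutamate, aspartate and cysteine, gave 902, 1352 and 522 in growth plate samples, against 1162, 1397 and 449 in articular ones. The 2 tissues ran alike, with day 20 the lowest and day 10 the highest value of each. Day 20 was 2.59-fold and 3.11-fold below day 10, a difference of -1.51 ± 0.26 in the 6-array fit (limma adjusted p = 0.149) and -1.51 ± 0.23 in the fit to cultures (limma adjusted p = 0.000732). A second SLC1A1 probe set, above the floor on all arrays, was higher at day 10 than at day 20 in growth plate cultures, at 130 and 75.0, but not in articular cultures, at 57.3 and 60.9. With the mean of all its probe sets, some of them under the floor, the SLC1A1 day difference was -0.42 (limma adjusted p = 0.472).

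SLC1A6 (EAAT4) gave 179, 270 and 67.1 in growth plate samples, against 36.2, 130 and 22.3 in articular ones. Growth plate was the higher at each stage, by 4.96-fold in native tissue, 2.07-fold at day 10 and at least 1.86-fold at day 20. The native articular signal sat just above the floor, so that a floor at the 60th percentile of signals reduced the native log2 difference from 2.31 to 0.40. Its day difference was 4.02-fold in growth plate and at least 3.61-fold in articular cultures. In the 6-array fit it was -1.93 ± 0.44 (limma adjusted p = 0.188). The fit to cultures gave -1.93 ± 0.32 (limma adjusted p = 0.0016). The floor at the 60th percentile reduced the day difference of the 6-array fit from -1.93 to -0.49. SLC1A3 (GLAST) gave 84.1, 103 and 32.9 against 23.1, 98.0 and 30.5, with both day 20 signals under the floor, at least 2.86-fold and 2.71-fold below day 10.

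SLC1A5 (ASCT2), the exchanger that brings in glutamine, gave 2356, 3770 and 2751 in growth plate samples, against 4628, 1332 and 1821 in articular ones. It was the higher in articular cartilage by 1.96-fold when native, and the higher in growth plate cultures by 2.83-fold at day 10 and 1.51-fold at day 20. The SLC1A5 tissue difference was 0.37 ± 0.45 in the 6-array fit (limma adjusted p = 0.758). In the fit to cultures it was 1.05 ± 0.21 (limma adjusted p = 0.014). Related SLC1A4 (ASCT1), which exchanges alanine, serine and cysteine, gave 149, 115 and 191 against 225, 66.0 and 83.0 and crossed over in the same way.

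SLC3A2 (CD98 heavy chain), the partner that brings several exchangers of the SLC7 family to the surface, gave 907, 559 and 319 in growth plate samples, against 1155, 331 and 439 in articular ones. Every culture signal was below both native signals, by 1.62-fold to 3.49-fold within a tissue, and the culture difference was -1.35 ± 0.34 (limma adjusted p = 0.147). SLC7A1 (CAT1), which takes up arginine and lysine, gave 4748, 3322 and 3995 against 5867, 2779 and 2392, again with each culture under its native tissue. Its culture difference was -0.78 ± 0.25 in the 6-array fit (limma adjusted p = 0.186).

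SLC6A8, the creatine carrier, gave 369, 503 and 467 in growth plate samples, against 2384, 639 and 354 in articular ones. Native articular cartilage was the only high sample, 6.46-fold above native growth plate, and its cultures were 3.73-fold and 6.74-fold lower than it. Opposite in pattern were SLC38A9, the lysosomal arginine sensor that acts upstream of mTORC1, and SLC38A1 (SNAT1), a sodium-coupled glutamine carrier. SLC38A9 gave 851, 1174 and 1018 against 240, 1077 and 718, so native articular cartilage was the low sample, 3.54-fold under native growth plate. SLC38A1 gave 777, 745 and 832 against 290, 476 and 726, and both of its other probe sets were lower in native articular than in native growth plate cartilage.

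In articular cultures at day 20, 7 of the 13 amino acid genes were 2-fold lower than in native tissue and 2 were higher, beside 8.82% and 14.9% of all genes, with a median log2 difference of -1 beside 0.03 over all genes. In growth plate cultures at day 20, 3 of 13 were 2-fold lower and 0 higher, beside 5.72% and 4.59% of all genes, with a median of 0.10. The 7 genes were SLC1A1, SLC1A4, SLC1A5, SLC3A2, SLC6A8, SLC7A1 and SLC7A7, the last a partner of SLC3A2 in exporting arginine and lysine. Of 6 measured genes of the amino acid response, limma called 0 in any contrast. Over all genes the calls were 0.0536% by tissue and 0% by culture and by day. In articular culture at day 10, 4 of the 6 were 2-fold lower than in native tissue, beside 9.56% of all genes. Asparagine synthetase (ASNS), a target of the transcription factor ATF4, gave 8942, 9023 and 12227 in growth plate samples, against 14199, 3967 and 11752 in articular ones, lowest in the articular day 10 culture. Of the 7 carrier genes, SLC1A5, SLC1A4, SLC3A2 and SLC7A7 had their lowest articular signals on that same array, SLC7A7 under the floor. SLC1A1, SLC6A8 and SLC7A1 had theirs in the articular day 20 culture. Any link between the response genes and the carriers was not tested.

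**Figure D4:**
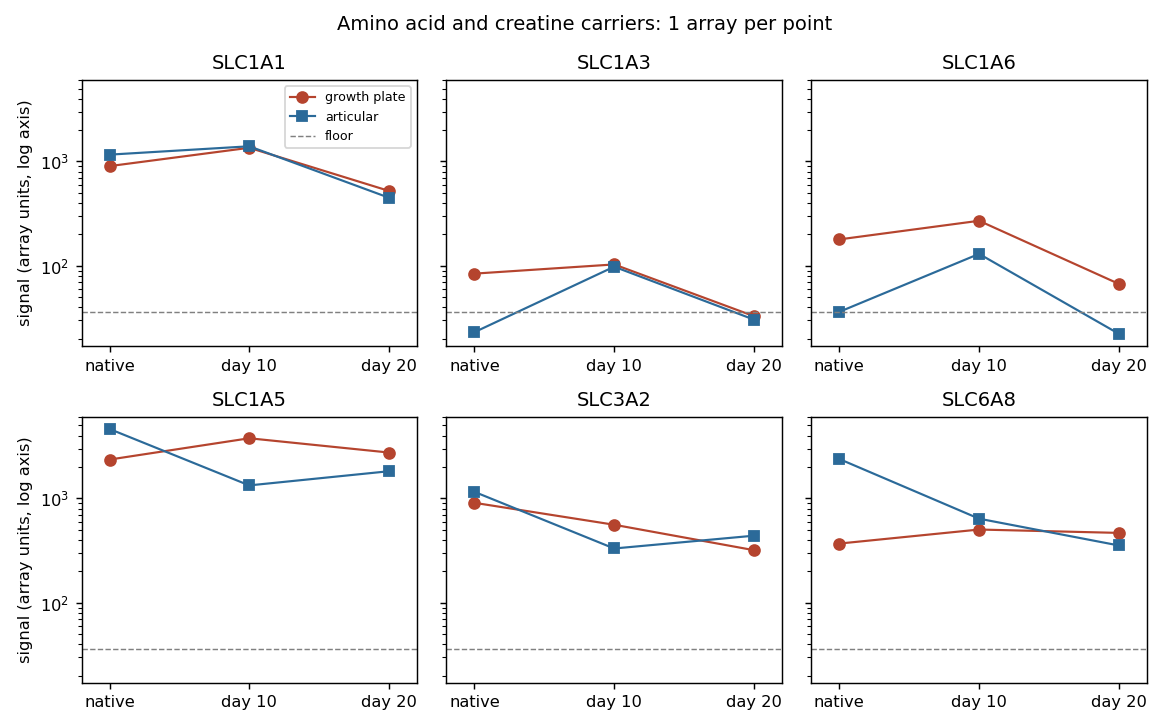
Signals of amino acid carriers on a log axis by stage, with growth plate in red, articular in blue, 1 array per point and the floor dashed. SLC1A1, SLC1A3 and SLC1A6 are lowest at day 20 in the cultures of both tissues, and SLC6A8 is highest in native articular cartilage.

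Metal carriers took in SLC11A2 (DMT1), a proton-coupled importer of ferrous iron, with 426, 199 and 158 in growth plate samples, against 397, 206 and 95.4 in articular ones. The tissues overlapped, and each culture lay under both native signals, by 2.14-fold and 2.69-fold in growth plate and by 1.92-fold and 4.16-fold in articular samples. The culture difference was -1.38 ± 0.32 (limma adjusted p = 0.141). A second probe set for SLC11A2 gave 127, 180 and 52.0 against 466, 198 and 141. On it growth plate day 10 was above native growth plate, with a log2 difference of 0.50, against -1.10 on the first. Native growth plate was below native articular cartilage on it, at -1.87, against 0.10 on the first. Growth plate day 20 and the articular cultures lay below their native tissue on both probe sets. SLC39A14 (ZIP14), which imports zinc and iron, gave 458, 172 and 150 against 194, 94.7 and 188, with native growth plate the single high sample.

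SLC39A4 (ZIP4), a plasma membrane zinc importer, gave 314, 129 and 706 in growth plate samples, against 140, 97.3 and 321 in articular ones. Growth plate was higher at every stage, by 2.24-, 1.32- and 2.2-fold, and day 20 was the highest of both series. Day 20 exceeded day 10 by 5.49-fold and 3.30-fold, a difference of 2.09 ± 0.37 in the 6-array fit (limma adjusted p = 0.149) and 2.09 ± 0.31 in the fit to cultures (limma adjusted p = 0.000654). SLC39A1 (ZIP1) and SLC39A7 (ZIP7), zinc carriers of the plasma membrane and of the endoplasmic reticulum, had signals of 1645 to 2389 and 1368 to 2057 with no pair of arrays within a comparison 2-fold apart. Limma called 0 of the 11 metal genes in any of the 3 contrasts, beside 0.0536% of all genes by tissue and 0% otherwise.

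Among mitochondrial carriers, SLC25A37 (mitoferrin-1), which brings iron into mitochondria for haem and iron-sulfur clusters, gave 626, 238 and 287 in growth plate samples, against 2137, 304 and 380 in articular ones. Both native samples were high and the 4 cultures low without overlap. Culture was 2.63-fold and 2.18-fold lower in growth plate and 7.02-fold and 5.63-fold lower in articular samples. The culture difference was -1.96 ± 0.38 (limma adjusted p = 0.122). Native tissue gave the higher signals on a second probe set as well, at 81.4, 52.2 and 59.1 against 136, 22.5 and 42.7. Of 5 listed erythroid markers, 4 were on the table, and their summed signal ran from 271 to 454 in growth plate and from 377 to 668 in articular samples. Haemoglobin beta (HBB) gave 234, 426 and 289 against 398, 610 and 342. Haemoglobin mu (HBM) was above the floor only in native articular cartilage, at 45.9, where SLC25A37 was also highest, and ALAS2 and AHSP were under the floor on all arrays. Their part in the SLC25A37 difference was not tested.

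SLC25A20, which exchanges acylcarnitines for carnitine across the inner membrane so that fatty acids can be oxidised, gave 253, 743 and 271 in growth plate samples, against 267, 734 and 344 in articular ones. The tissues were close at each stage, at most 1.27-fold apart. Day 10 was the peak of both, 2.94-fold and 2.75-fold above native tissue and 2.75-fold and 2.13-fold above day 20. No other of the 92 genes had a day 10 signal 2-fold above both native tissue and day 20 in both tissues, beside 0.697% of all genes. The day difference was -1.27 ± 0.30 in the 6-array fit (limma adjusted p = 0.194). The fit to cultures gave -1.27 ± 0.26 (limma adjusted p = 0.00491).

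SLC25A33, a pyrimidine nucleotide carrier, gave 545, 775 and 353 against 2085, 850 and 743, with native articular cartilage 3.83-fold above native growth plate. The mitochondrial phosphate carrier SLC25A3 gave 9545, 8212 and 9344 in growth plate samples, against 11111, 7996 and 7746 in articular ones, with no pair more than 1.43-fold apart. A much dimmer SLC25A3 probe set gave 64.0, 105 and 81.9 against 59.2, 40.5 and 50.7, with a log2 tissue difference of 1.37 at day 10. The ADP/ATP carriers SLC25A4, SLC25A5 and SLC25A6 have near-identical sequences, so that probe sets could share signal and their values are uncertain. SLC25A6 ran from 11357 to 18506, SLC25A5 from 2807 to 5027 and SLC25A4 from 343 to 793 over the 6 arrays. None was 2-fold apart in any pair of arrays of the same tissue or the same stage. Across the 21 mitochondrial genes that passed, the median log2 difference was 0.13 between native tissues, 0.11 for culture and -0.24 for day 20 against day 10, beside -0.01, 0.06 and -0.02 over all genes.

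**Figure D5:**
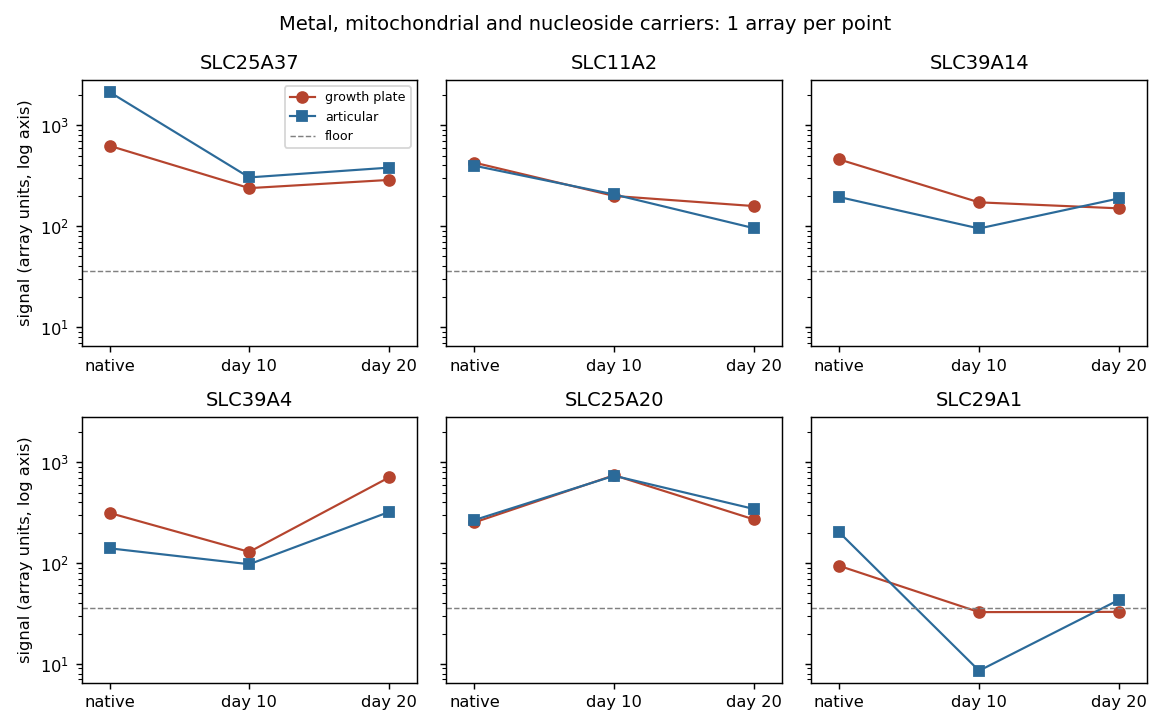
Signals of SLC25A37, SLC11A2, SLC39A14, SLC39A4, SLC25A20 and SLC29A1 on a log axis by stage, with growth plate in red, articular in blue, 1 array per point and the floor dashed. SLC25A37 and SLC11A2 are highest in the native tissues, SLC25A20 peaks at day 10 in both tissues, and SLC39A4 is highest at day 20.

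Nucleoside and nucleotide sugar carriers included SLC29A1 (ENT1), which equilibrates adenosine and other nucleosides across the plasma membrane. It gave 93.7, 32.6 and 32.8 in growth plate samples, against 201, 8.55 and 43.1 in articular ones. The native samples were the only ones clearly above the floor. Culture was at least 2.59-fold lower at both days in growth plate, at least 5.56-fold lower in articular samples at day 10, and 4.66-fold lower there at day 20. The culture difference was -1.86 ± 0.31 (limma adjusted p = 0.103).

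SLC35A3, a Golgi carrier of UDP-N-acetylglucosamine needed for glycan and keratan sulfate synthesis, gave 947, 1129 and 1653 in growth plate samples, against 368, 639 and 669 in articular ones. All growth plate signals were above all articular ones, by 2.57-, 1.77- and 2.47-fold at the matched stages. The tissue difference was 1.16 ± 0.22 in the 6-array fit (limma adjusted p = 0.304) and 1.06 ± 0.23 in the fit to cultures (limma adjusted p = 0.0172). SLC35D2, another Golgi carrier of nucleotide sugars, gave 65.9, 205 and 105 against 29.7, 135 and 164, lowest in both native tissues. Its culture difference was 1.60 ± 0.39 (limma adjusted p = 0.147), and the articular cultures were at least 3.74-fold and 4.53-fold above a native signal under the floor.

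SLC35B2, which brings the sulfate donor PAPS into the Golgi, gave 380, 911 and 796 in growth plate samples, against 748, 978 and 731 in articular ones. Native growth plate was the low sample, 2.40-fold and 2.10-fold under its cultures. The PAPS synthases PAPSS1 and PAPSS2, which make that donor, were within 2-fold in every comparison, PAPSS2 with 8545, 7467 and 8446 against 6201, 7044 and 6696. SLC35F5 gave 2695, 1336 and 2062 against 1496, 1730 and 2312, with no order shared by the tissues. The fucose carrier SLC35C1 was near the floor, from 32.4 to 88.0, with its highest signals at day 10 in both tissues.

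Among ion carriers, 1 of 8 genes, SLC26A6, was 2-fold higher on the growth plate side when native (12.9% of all genes were), and 0 were at day 10 (3.41%). At day 20, SLC26A6 and SLC9A5 were 2-fold higher in growth plate, 2 of 8 beside 2.84% of all genes. SLC9A5 gave 75.4, 95.1 and 83.0 in growth plate samples, against 101, 67.2 and 38.9 in articular ones. The potassium-chloride cotransporter SLC12A4 (KCC1), which takes part in volume regulation, gave 430, 950 and 693 in growth plate samples, against 625, 566 and 648 in articular ones. The magnesium carrier SLC41A1 gave 418, 178 and 261 against 522, 341 and 242, with native tissue the higher in both. A dimmer SLC41A1 probe set gave 67.2, 103 and 73.6 against 105, 50.7 and 70.5, and had native tissue lowest in growth plate. Another dim SLC41A1 probe set gave 68.4, 43.7 and 57.0 against 80.9, 59.1 and 38.6, with native tissue the higher in both. SLC26A6, an anion exchanger, gave 107, 26.8 and 80.1 against 51.9, 8.68 and 39.6, and was under the floor in both day 10 cultures. The lysosomal and plasma membrane sulfate carrier SLC26A11 likewise had its lowest signals at day 10, with 245, 95.9 and 180 against 202, 112 and 198. Over the 8 ion genes that passed, limma called 0 in the 3 contrasts, beside 0.0536% of all genes by tissue and 0% otherwise. Their median log2 difference for culture was -0.49 beside 0.06 over all genes.

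Vitamin and organic ion carriers split in the native tissues. SLC5A6 (SMVT), which takes up biotin and pantothenate, gave 122, 252 and 142 in growth plate samples, against 521, 243 and 128 in articular ones, with native articular cartilage the single high sample, 4.26-fold above native growth plate. SLC46A1 (PCFT), a proton-coupled folate carrier that also carries haem, gave 87.4, 240 and 126 against 30.8, 239 and 173. On this probe set day 10 was the highest value in both, and the articular cultures were at least 6.62-fold and 4.79-fold above native tissue. A second, dimmer probe set gave 11.2, 45.6 and 55.8 against 65.3, 5.24 and 44.7, with native articular cartilage highest, so the probe sets disagree on the articular difference. SLC33A1, the acetyl-CoA carrier of the endoplasmic reticulum, gave 871, 867 and 631 against 292, 608 and 567, and its other probe sets above the floor also had native articular cartilage lowest. SLC44A2, a choline carrier, gave 1493, 978 and 1139 against 822, 491 and 1220, higher in growth plate in native tissue and at day 10 by 1.82-fold and 1.99-fold.

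The 3 genes that only share the prefix also differed between samples. SLC9A3R1 (NHERF1), a scaffold that tethers membrane proteins to the cortical cytoskeleton, gave 160, 138 and 88.6 in growth plate samples, against 647, 226 and 250 in articular ones. Every articular signal was above every growth plate signal, by 4.05-, 1.64- and 2.83-fold at the matched stages, and the tissue difference was -1.41 ± 0.34 (limma adjusted p = 0.397). Its relative SLC9A3R2 (NHERF2) gave 378, 193 and 623 against 106, 237 and 758, and day 20 exceeded day 10 by 3.22-fold and 3.20-fold. In the 6-array fit that day difference was 1.68 ± 0.60 (limma adjusted p = 0.308). The fit to cultures gave 1.68 ± 0.27 (limma adjusted p = 0.00102). SLC2A4RG, a transcription factor named for its action on the GLUT4 gene, gave 221, 336 and 320 against 238, 630 and 526, lowest in both native tissues.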

How the data were processed

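Total RNA of 6 porcine samples was hybridised to 1 Affymetrix array each. Per the submitters' processing notes, GCOS 1.4 was used. The authors deposited a linear intensity for every probe set, and neither its scaling target nor the algorithm settings are given in the sources used here. The mean with 2% trimmed at each end was 400.1 on every array, so the signals were not scaled again. Of 24123 probe sets, 124 controls were left out. Signals under 36.1, the 40th percentile, were set to it before the log2 transform. Names came from the platform annotation; 118 of the 120 symbols were found in the RefSeq table and 0 differed. The 5 probe sets that name a solute carrier among several symbols were left out. A gene was kept when above the floor on at least 2 arrays (5598 of 6765).

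An additive model of tissue and stage was fitted over all genes with limma 3.58.1 in R 4.3.3 (with the package data.table at version 1.17.8), with an intensity trend, 2 residual and 3.78 prior degrees of freedom. A call needed a Benjamini-Hochberg adjusted p under 0.05 and 2-fold. The fit was tested on simulated data. The 4 cultures were also fitted alone, with 1 residual and 12.3 prior degrees of freedom over 5473 genes.

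The rule for named genes took those called, 2-fold apart in every pair of a contrast, 4-fold apart between tissues, or among the 2 with the highest mean log2 signal of a substrate group, and a list of carriers known in cartilage; it gave 33 genes. Other genes described were chosen after their values were seen. Members, gene lists and tests were chosen with earlier results of these data known.

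Alternatives were quantile normalization, median centring, floors at the 25th and 60th percentiles, a pseudocount of 16, no filter, a filter on all 6 arrays, the mean of a symbol's probe sets, a 3-fold rule, no intensity trend, the fit to cultures, and leaving out each array.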

Additional observations from a re-analysis of the deposited data

Results flagged for a closer look

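SLC1A5, SLC5A6 and SLC6A8 were higher in both growth plate cultures than in native growth plate, and lower in both articular cultures than in native articular cartilage. The mean culture response of growth plate minus that of articular samples was 2.02 on the log2 scale for SLC1A5, 2.19 for SLC5A6 and 2.72 for SLC6A8. With 1 array per condition the difference between the tissues was not tested. Mean responses at least 4-fold apart and opposite in direction were found for 3 of the 92 genes (3.26%), beside 2.16% of all genes. Opposite responses of any size were found for 13 of the 92 (14.1%), beside 16.9% of all genes. Each value rests on the native articular array, on which SLC1A5, SLC5A6 and SLC6A8 had their highest signals.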

How the results depend on the processing

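No paired analysis was possible because each group had 1 sample and the labels give no replicate numbers. The native count of genes 4-fold lower in growth plate, 3 as reported, was 5 with median centring, which moved the median of all genes to -0.26, and 1 with the pseudocount. A 3-fold rule gave 5 lower and 7 higher. A floor at the 25th percentile gave 1 gene higher in growth plate in every pair, where none was reported; it was SLC1A6. The 2 genes lower in every culture pair became 1 with the floor at the 60th percentile, 1 with the filter on all 6 arrays, 1 with the mean of probe sets and 0 at 3-fold. The 4 genes lower at day 20 in both tissues became 2, 2 and 1 with the floor at the 60th percentile, the filter on all 6 arrays and the 3-fold rule. The fit to cultures called 2 genes by tissue and 11 by day, with fewer arrays and no native stage.

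Leaving out each array in turn, limma called 0 to 2 genes by tissue, 0 to 22 by culture and 0 to 11 by day. Genes 2-fold apart in every pair left numbered 0 to 4 higher and 0 to 2 lower by tissue, 0 to 8 higher and 2 to 13 lower by culture, and 3 to 7 higher and 4 to 8 lower by day; fewer pairs make that rule easier to meet. The genes 2-fold apart in every pair and the genes 4-fold apart between native tissues kept their direction under the alternatives run for them. The counts changed under several of these, also in whether more genes were higher or lower. Group medians and the other genes described were not run. The SLC1A1 day difference of -1.51 was -0.42 with the mean of its probe sets, and that of SLC1A6, -1.93, was -0.49 with the floor at the 60th percentile. The number of arrays limits the precision.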

Other observations

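Carriers and pumps outside the solute carrier nomenclature were measured for 12 of 18 listed genes, and limma called 0 of them in any contrast. Over all genes the calls were 0.0536% by tissue and 0% by culture and by day. The water channel AQP1 gave 85.1, 117 and 486 in growth plate samples, against 486, 391 and 2831 in articular ones, higher in articular samples at each stage and highest at day 20 in both series. Carbonic anhydrase IX (CA9), which acidifies the space outside the cell, gave 250, 119 and 1309 against 100, 195 and 988, with day 20 the highest of both series. The sodium pump subunit ATP1B1 gave 3951, 3200 and 3965 against 9593, 3448 and 3356, with native articular cartilage the single high sample. Of 6 listed phosphate and mineral genes, 3 were measured, and limma called 1 by tissue, ALPL, but not ENPP1 or PHOSPHO1. ALPL gave 1522, 3057 and 2287 against 24.2, 29.9 and 90.9, with native and day 10 articular signals under the floor. Its tissue difference was 5.48 ± 0.39 in the 6-array fit (limma adjusted p = 0.0298).

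The day 20 minus day 10 differences of growth plate and articular cultures, which share no array, correlated across the 92 solute carrier genes with r = 0.627 (Pearson) and rho = 0.499 (Spearman), and across all 5598 genes with 0.598 and 0.572. Genes are not independent replicates, and both differences share the platform and its scaling.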
